A study of Homo sapiens with 58 samples.

Results

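Amino acid transporters are membrane proteins that move amino acids across the cell surface or the membrane of the lysosome. They were taken here as every gene of the platform annotation named SLC1A1 to SLC1A7, SLC3A1, SLC3A2 or a numbered member of the SLC7, SLC36, SLC38 and SLC43 families, together with SLC6A14. The rule found 40 genes of the 19798 that a probe set names alone, and each gene was read from its probe set with the highest mean over all lines. SLC3A1 and SLC3A2, the heavy chains that carry several SLC7 light chains to the surface, were named by no probe set of the annotation used and are not analysed here.

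Cells take up glutamine, leucine, arginine, serine and cystine through these carriers for protein synthesis, for redox balance and as signals to the growth kinase mTORC1. Sodium-coupled carriers such as SLC1A5 and SLC38A2 accumulate neutral amino acids, and the SLC7 light chains exchange them, SLC7A5 for leucine and other large neutral amino acids and SLC7A11 for cystine against glutamate. In breast cancer SLC7A5, SLC1A5 and SLC7A11 are known as carriers that tumour cells often hold at high levels, and SLC6A14 as one that oestrogen receptor positive cells use.

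The study profiled 58 human cell lines, all labelled as breast cancer, untreated and grown as the vendor recommends, with 1 custom Affymetrix array of amplified, biotin-labelled total RNA per line. The labels give no genotype, subtype or treatment group, so levels were described over lines and tested against continuous measures of cell state. No line has a replicate. The nearest measure of error is the difference between lines of common or like-named origin, of which there were 6 sets holding 14 lines: AU565 with SKBR3, EFM192A with EFM192B and EFM192C, MDAMB435S with its derivatives M4A4 and NM2C5, MB157 with MDAMB157, HMT3522S1 with HMT3522T42, and VP229 with VP267. These sets were made from the names of the lines and general knowledge of their origin, not from the labels. Lines of a set were averaged, which left 50 units for every test.

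The median of an array ranged from 5.37 to 5.58 (log2 intensity). Deviations from gene medians had an interquartile range of 0.45 to 0.64 per array, widest in HS362T, MB157 and EFM192A. Some lines went against their label or stood apart. The mean of 11 fibroblast markers was 12.74 to 12.86 in HS362T, HS579MG, HS605T and HS739T and 12.71 in HS578T, against 10.44 in the next line and a median of 5.03 (log2 intensity). The mean of 7 melanocyte markers was 8.70 in MDAMB435S, 10.28 in M4A4 and 11.84 in NM2C5 against a median of 5.25. That of 9 intestinal markers was 10.08 in MT3 against a median of 3.58. MB157 and MDAMB157 stood apart from each other, with a fibroblast marker mean of 5.24 against 10.44, a mammary basal one of 10.18 against 5.55 and a mammary luminal one of 7.83 against 5.56. MDAMB435 and MT3 are also reported elsewhere not to come from breast tumours. Results that rest on these lines are given with and without them. Marker means cannot tell malignant from non-malignant mammary cells, so the breast cancer label was not checked in that respect for any line.

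For 3 members the sequence before the start site is shown, since SLC1A3 had the largest positive slope on oxidative stress genes and SLC43A1 and SLC7A1 had the highest correlation between members (both below). The RefSeq promoter table (GRCh38.p14) matched 32 of the 40 members, with 52 start sites, and the 250 bases before each start were searched on both strands. SLC7A11 was among the members without an entry, so its promoter was not searched. Capitals mark an amino acid response element (TGATGNAA) in the first sequence, an antioxidant response element (TGACNNNGC) in the second and the third, and an E-box (CACGTG) in the last. Only windows with a match are shown, so a member may have other starts. The SLC1A3 windows lie on the plus strand at chr5:36596338-36596587 and chr5:36606356-36606605. The SLC7A1 window lies at chr13:29595689-29595938 and that of SLC43A1 at chr11:57515703-57515952, both on the minus strand.
SLC1A3, upstream start: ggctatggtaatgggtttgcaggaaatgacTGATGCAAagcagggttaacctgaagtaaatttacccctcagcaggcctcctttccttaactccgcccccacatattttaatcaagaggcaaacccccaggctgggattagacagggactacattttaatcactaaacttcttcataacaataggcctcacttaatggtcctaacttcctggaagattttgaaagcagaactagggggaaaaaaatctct
SLC1A3, downstream start: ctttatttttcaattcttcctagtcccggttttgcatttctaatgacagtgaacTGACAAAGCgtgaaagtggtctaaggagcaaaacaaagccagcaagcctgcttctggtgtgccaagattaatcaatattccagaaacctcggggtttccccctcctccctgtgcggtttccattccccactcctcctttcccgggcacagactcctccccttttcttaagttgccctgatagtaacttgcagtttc
SLC7A1: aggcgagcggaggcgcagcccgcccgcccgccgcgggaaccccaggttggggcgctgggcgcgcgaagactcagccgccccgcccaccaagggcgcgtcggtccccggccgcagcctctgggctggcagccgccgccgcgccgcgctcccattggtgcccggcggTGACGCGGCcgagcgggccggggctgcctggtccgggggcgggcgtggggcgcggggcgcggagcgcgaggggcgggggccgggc
SLC43A1: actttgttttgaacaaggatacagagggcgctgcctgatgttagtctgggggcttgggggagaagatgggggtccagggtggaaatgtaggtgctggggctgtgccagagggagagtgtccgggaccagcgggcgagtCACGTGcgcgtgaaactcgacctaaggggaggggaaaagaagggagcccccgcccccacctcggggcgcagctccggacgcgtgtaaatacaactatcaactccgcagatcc
The match starts 220 bases before the upstream SLC1A3 start, 196 before the downstream one, 85 before that of SLC7A1 and 112 before that of SLC43A1.

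Over all member promoters, the amino acid response element was found in 2 of 52 (3.85%) against 3.14% of all 35116 promoters, and the antioxidant response element in 5 of 52 (9.62%) against 10.9%. The E-box, a motif that MYC and related factors bind, was found in 8 of 52 (15.4%), those of SLC1A5, SLC1A7, SLC36A1, SLC38A5, SLC43A1, SLC7A5, SLC7A7 and SLC7A8, against 6.34% of all promoters. The palindromic oestrogen response element was found in none of the 52 and in 0.0399% of all promoters. These matches are descriptions of letters in this window.

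A member was called detected where it exceeded the array median in at least 3 units. This held for 32 of 40 members (80%) against 74% of all genes. The 8 members that did not reach it were SLC7A3, SLC7A4, SLC7A9, SLC7A13, SLC7A14, SLC36A3, SLC38A8 and SLC38A11. SLC7A3, SLC7A9, SLC7A14, SLC36A3 and SLC38A11 were at or below background in all 58 lines, where background is 5.53, the level that 95% of the 739 probe sets for viral genes do not exceed. The highest SLC7A13 values, in a carrier known from kidney, were 7.39 in MDAMB175VII, 6.37 in EFM192A and 5.74 in EFM192C. By contrast, 14 members exceeded the array median in all 58 lines, among them SLC1A4, SLC1A5, SLC7A1, SLC7A5, SLC7A6, SLC7A11, SLC38A2 and SLC38A9. Intensities of different probe sets are not comparable, so members are described each against its own range.

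**Figure D1:**
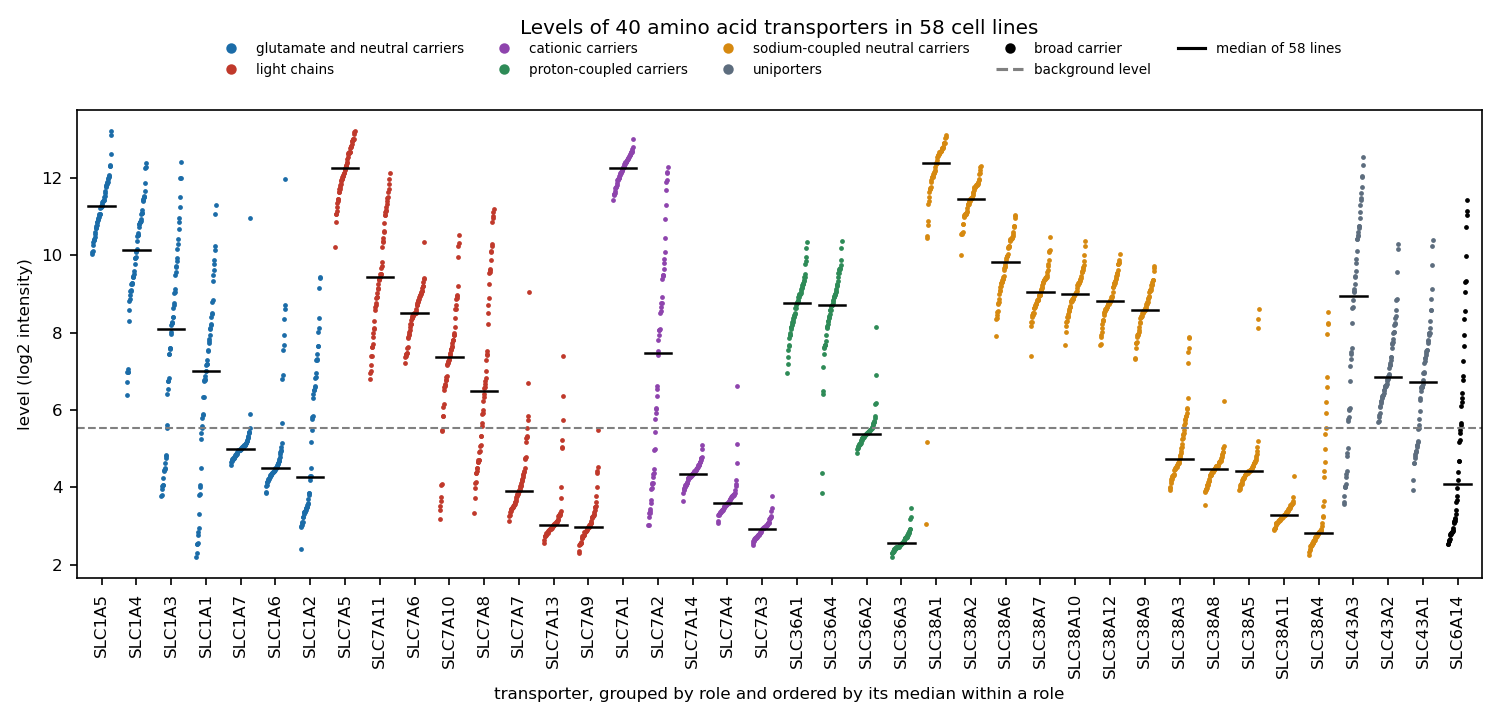
Level of each of the 40 transporters (vertical axis, log2 intensity) in the 58 lines (points, sorted from lowest to highest within a gene), with the median as a black bar and the background level of 5.53 as a dashed line; colours mark the 7 roles. SLC7A1 and SLC38A2 fill narrow bands far above background, SLC7A2, SLC43A3 and SLC6A14 run from background to over 11, and SLC1A6, SLC1A7 and SLC7A7 are high in 1 or a few lines.

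Among the carriers for glutamate and small neutral amino acids, the neutral exchangers were present everywhere. SLC1A5, the glutamine exchanger, ran from 10.03 in MDAMB157 over a median of 11.27 to 13.22 in DU4475 and 13.11 in SW527, and SLC1A4, which exchanges alanine, serine and cysteine, from 6.39 in MCF102A over 10.14 to 12.38 in NM2C5. The glutamate carriers were present well above background in some lines and at background in others. SLC1A3 ran from 3.77 in CAMA1 over 8.11 to 12.41 in MDAMB468, with 15 lines at background. SLC1A1 ran from 2.19 in HCC1806 over 7.005 to 11.29 in HCC1187, with 16 lines at background. SLC1A2, the main glutamate carrier of astrocytes, had a median of 4.28, below background, and reached 9.44 in EFM192C, 9.40 in CAMA1 and 9.16 in SW527. SLC1A6, a glutamate carrier known from Purkinje cells, exceeded the array median in 10 lines, at most in MDAMB468 at 11.97, with 8.71 in SVCT next. SLC1A7, known from the retina, was at 10.96 in MDAMB453 and at or below 5.90 in all other lines. No neighbour of SLC1A7 among 4 genes on each side rose with it by more than 1.64 (ZYG11A). Beside SLC1A6 the epidermal protease gene CASP14 was at 9.36 in MDAMB468 against a median of 3.89.

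Light chains that pair with a heavy chain differed as much. SLC7A5 ran from 10.20 in MDAMB453 over a median of 12.25 to 13.21 in DU4475, an SD of 0.64 across units. SLC7A11, the cystine carrier that feeds glutathione synthesis, ran from 6.81 in SKBR3 and 6.95 in MDAMB175VII over 9.44 to 11.96 in VP229 and 12.12 in HCC1806, with no line at background and an SD of 1.48. SLC7A6, an exchanger of cationic and neutral amino acids, ran from 7.22 in FR2 over 8.50 to 10.35 in BT20. SLC7A8, another large neutral amino acid exchanger, ran from 3.33 in VP267 over 6.49 to 11.19 in MDAMB453 and 11.11 in HS362T, with 21 lines at background. SLC7A10, which carries small neutral amino acids and D-serine, was at 3.17 in NM2C5 and 3.41 in M4A4 and reached 10.52 in MB157. SLC7A7, which exports cationic amino acids, exceeded the array median in only 4 lines, at most in CAL51 at 9.06, with 6.69 in HS362T next.

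Of the cationic carriers, SLC7A1, the general arginine carrier, had the narrowest range of any detected member, from 11.43 in MDAMB157 over 12.26 to 13.003 in DU4475. Its SD across units of 0.35 was barely above the 0.34 within sets of common origin. SLC7A2, an arginine carrier known from liver and activated macrophages, had the largest SD, 2.87, and ran from 3.01 in HS579MG and 3.03 in HCC70 over 7.47 to 12.15 in EFM192C and 12.29 in KPL1, with 21 lines at background.

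Of the proton-coupled carriers, SLC36A1 is known to release small amino acids from lysosomes. It ran from 6.95 in MFM223 over 8.78 to 10.33 in HS739T. SLC36A4 had a median of 8.71 and was at 3.85 in CAL51 and 4.36 in MT3, below background, while the next line, MDAMB175VII, was at 6.405. All 4 SLC36A4 probe sets were lowest in CAL51, and in MT3 each was among the 3 lowest of the 58 lines. In CAL51 the nearest detected genes were at 4.94 (MTNR1B, median 5.26, both below background) and 7.99 (SMCO4, median 7.29). In MT3 MTNR1B was at 5.48, also below background, and SMCO4 at 8.64. SLC36A2 stayed between 4.89 in HS579MG and 8.14 in AU565, with 44 lines at background.

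Among the sodium-coupled neutral carriers, SLC38A1 and SLC38A2, which load cells with glutamine and alanine, were well above background in all lines but the 2 named below. SLC38A2 ran from 10.001 in COLO824 over 11.46 to 12.31 in HS605T, and SLC38A1 had a median of 12.39 and a highest value of 13.10 in OCUBM. SLC38A9, the lysosomal arginine sensor upstream of mTORC1, stayed between 7.31 in EFM192C and 9.72 in T47D. SLC38A6, SLC38A7, SLC38A10 and SLC38A12 were likewise above background in all lines, with SDs of 0.75, 0.56, 0.51 and 0.56. SLC38A4, known from liver and placenta, exceeded the array median in 9 lines, up to 8.52 in MDAMB231, 8.26 in CAL51 and 8.22 in HCC1806, and its median was 2.83. SLC38A5, a glutamine and serine carrier, exceeded it in HS605T at 8.61, HS579MG at 8.35 and SW527 at 8.12, and the fourth line, HS739T, was at 5.21. SLC38A3, the glutamine carrier of liver and kidney, exceeded it in 15 lines, at most in HCC1569 at 7.88.

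The uniporters SLC43A1 and SLC43A2 let leucine and other large neutral amino acids through without a coupled ion, while SLC43A3 is known to carry purine bases. SLC43A1 ran from 3.93 in BT20 over 6.71 to 10.23 in SW527 and 10.41 in MT3, SLC43A2 from 5.69 in HCC1806 over 6.85 to 10.28 in EFM192B. SLC43A3 ran from 3.58 in CAL51 over 8.95 to 12.04 in MDAMB435S, 12.33 in M4A4 and 12.55 in NM2C5. The last set of lines took the top places for SLC43A3, and these lines also held melanocyte markers (above). SLC6A14, a concentrative carrier for nearly all neutral and cationic amino acids, ran from 2.53 in HS605T over 4.08 to 11.16 in VP267 and 11.44 in HCC1937, with 37 lines at background.

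Over the 50 units, 16 of the 32 detected members had an SD of at least 1 log2 unit (50%) against 34.2% of detected genes, and 6 had an SD of at least 2 (18.8% against 10.1%): SLC7A2 (2.87), SLC43A3 (2.74), SLC6A14 (2.62), SLC1A3 (2.56), SLC1A1 (2.41) and SLC7A8 (2.34). The median SD was 1.002 against 0.70 over detected genes, and the median of the SDs within sets was 0.57 against 0.44. In 29 of 32 members (90.6%, against 90.1% of detected genes) the SD across units exceeded that within sets. The exceptions were SLC38A1 (1.02 across, 2.18 within), SLC36A2 (0.39 and 0.57) and SLC38A10 (0.51 and 0.52). With MB157 and MDAMB157 not counted as a set, the median within the other 5 was 0.57 over members and 0.41 over detected genes, and the SD across units again exceeded that within sets in 29 members.

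Lines of one origin could differ in single carriers as much as unrelated lines did. SLC38A1 was at 11.40 in MDAMB435S, 5.18 in M4A4 and 3.04 in NM2C5, the latter 2 the lowest of the 58 lines, while the third lowest line, FR2, was at 10.44. Of its 6 probe sets, 4 were among the lowest 2 lines in both derivatives. The probe set with the lowest median (3.78) was not low in NM2C5 (4.18). Along the chromosome, ANO6, ARID2, SCAF11 and SLC38A2 stayed near their medians in all 3 lines, the farthest being ARID2 at 9.73 in MDAMB435S against a median of 10.41. AMIGO2 was at 9.78, 5.26 and 3.58 in MDAMB435S, M4A4 and NM2C5, and PCED1B at 6.08, 3.68 and 4.02. These neighbours also vary widely over all units, with SDs of 2.29 for AMIGO2 and 1.48 for PCED1B. SLC38A4, which lies between SLC38A2 and AMIGO2, was at 2.50, 2.61 and 2.86 in the 3 lines against a median of 2.83, below background.

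**Figure D2:**
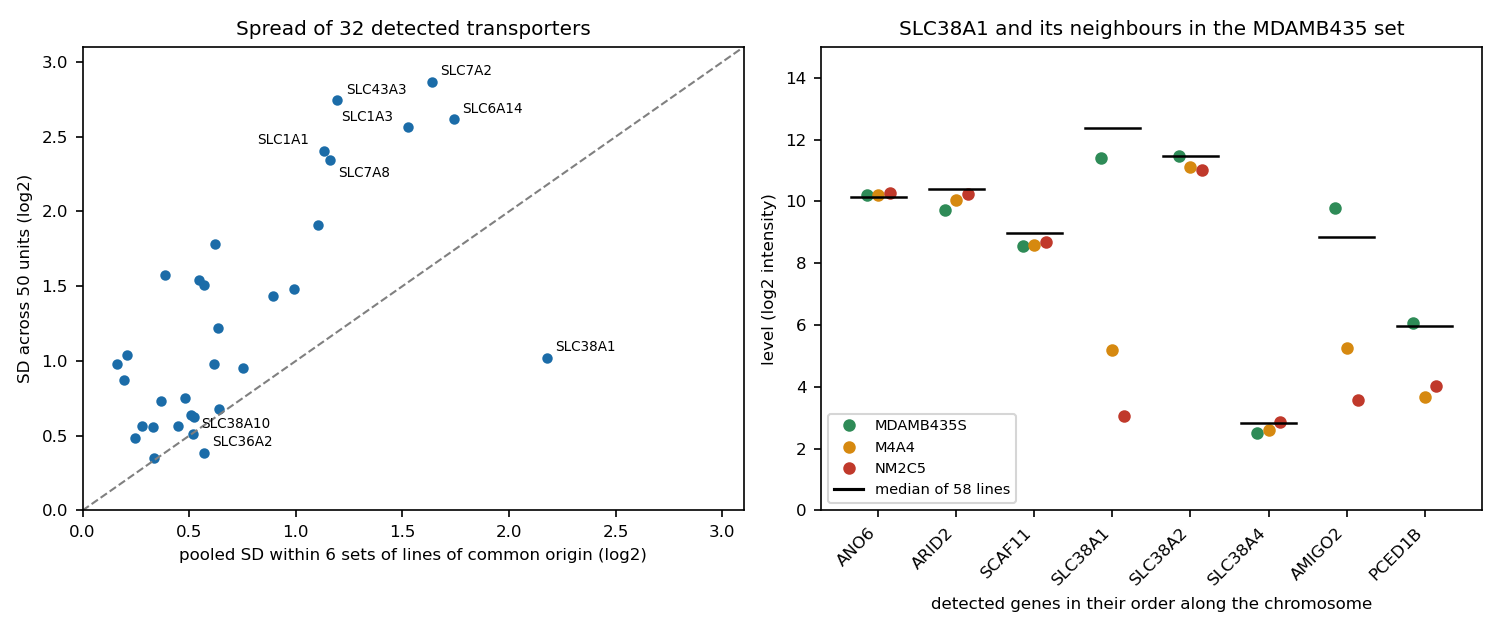
Left, SD across 50 units (vertical axis, log2) against the pooled SD within 6 sets of common origin (horizontal axis, log2) for the 32 detected transporters, with equality dashed; SLC38A1 lies below the line at 2.18 within and 1.02 across. Right, level (log2 intensity) of SLC38A1 and its detected neighbours in MDAMB435S, M4A4 and NM2C5, with the median of 58 lines as a bar; SLC38A1 falls from 11.40 to 5.18 and 3.04 while SLC38A2 stays near 11.46.

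SLC6A14 was at 9.33 in AU565 and 4.18 in SKBR3, 2 lines from the same patient, and SLC7A2 was at 9.39 and 5.42 in them. SLC43A3 was at 10.43 in HMT3522S1 and 6.04 in HMT3522T42, a difference of 4.39. SLC7A11 was at 10.38 in EFM192A, 9.52 in EFM192C and 6.99 in EFM192B. The EFM192 set differed most overall: its median difference over the 32 detected members was 1.24, and 17 members differed by at least 1, while the medians of the other 5 sets lay between 0.38 and 0.48. The difference is that between the highest and the lowest line of a set. EFM192 and MDAMB435 have 3 lines and the other sets 2, and a range over more lines tends to be larger. No such count over all detected genes is given here, so the difference may not be particular to carriers. EFM192A was also among the 3 arrays with the widest relative log expression, and its part in the difference was not tested.

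To ask whether carriers follow the luminal state of the lines, each gene's level was set against a luminal score, the mean deviation from the median of 14 luminal genes, among them FOXA1, GATA3, KRT18, KRT19, ERBB3, XBP1 and SPDEF. The score was highest in MDAMB175VII, ZR751 and MFM223 and lowest in the Hs lines, and slopes are in log2 units per SD of the score, which is 1.98 log2 units. Of 32 members, 14 passed (43.8%; limma, Benjamini-Hochberg adjusted p under 0.05) against 35.7% of the 14637 genes tested. Only 3 were higher with the score (9.38% against 20.4%) and 11 were lower (34.4% against 15.3%). The median slope was -0.01 over members and 0.03 over all genes tested.

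SLC7A11 had the smallest p among members, with a slope of -0.78 (SE 0.18, adjusted p = 0.000515), a 1.71-fold lower level per SD. It was at 6.95 in MDAMB175VII and 7.15 in ZR751 and between 10.83 and 11.85 in the 4 Hs lines, but MFM223, also high in the score, was at 11.15, so the ranges overlap. SLC43A3 had the steepest slope at -1.14 (SE 0.35, adjusted p = 0.00938). SLC38A4 followed at -0.85 (SE 0.22, adjusted p = 0.00212), and it was between 5.93 and 7.96 in the Hs lines against a median of 2.80 in the others. SLC1A3 had a slope of -0.85 (SE 0.34, adjusted p = 0.0467). The other 7 lower members were SLC43A1, SLC36A4, SLC7A7, SLC36A1, SLC38A6, SLC38A2 and SLC7A1, with slopes from -0.53 to -0.12. SLC7A7 was at background in 54 of the 58 lines and SLC38A4 in 50. The lines where they exceeded background all had negative scores, for SLC7A7 CAL51, HS362T, HCC1143 and SW527. Both passed the detection filter only through such lines, so they add no separate support to the share of lower members. Higher with the score were SLC6A14 (slope 1.01, SE 0.34, adjusted p = 0.0179), SLC1A2 (0.81, SE 0.25, adjusted p = 0.00824) and SLC38A1 (0.38, SE 0.13, adjusted p = 0.024). The ranges of SLC6A14 overlap as well. Among lines high in the score it was at 9.04 in MDAMB175VII but at 3.78 in ZR751, 2.61 in MFM223 and 2.53 in ZR7530. Its highest level, 11.44, was in HCC1937, with a score of 0.40.

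The carriers most often studied in breast cancer did not all follow the score. SLC7A5 had a slope of -0.0049 (95% interval -0.19 to 0.18, adjusted p = 0.974) and SLC1A5 one of 0.15 (-0.04 to 0.34, adjusted p = 0.222). SLC7A2, the most variable member, had a slope of 0.51 (-0.29 to 1.31, adjusted p = 0.342). These intervals do not show that the levels are alike, only that no slope was resolved at this spread.

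**Figure D3:**
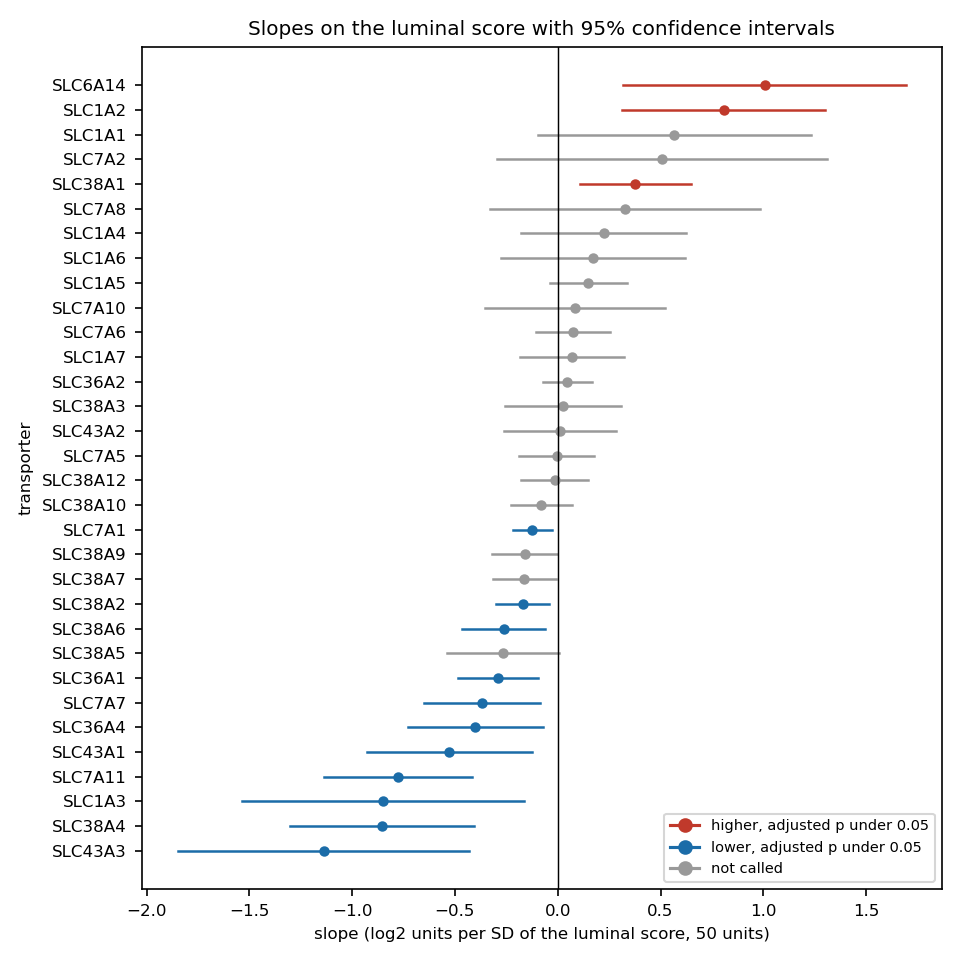
Slope on the luminal score (horizontal axis, log2 units per SD of the score) with its 95% confidence interval for each of the 32 detected transporters over 50 units. The 3 called higher (red) run up to 1.01 for SLC6A14, the 11 called lower (blue) down to -1.14 for SLC43A3, and SLC7A5 lies at zero.

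**Figure D4:**
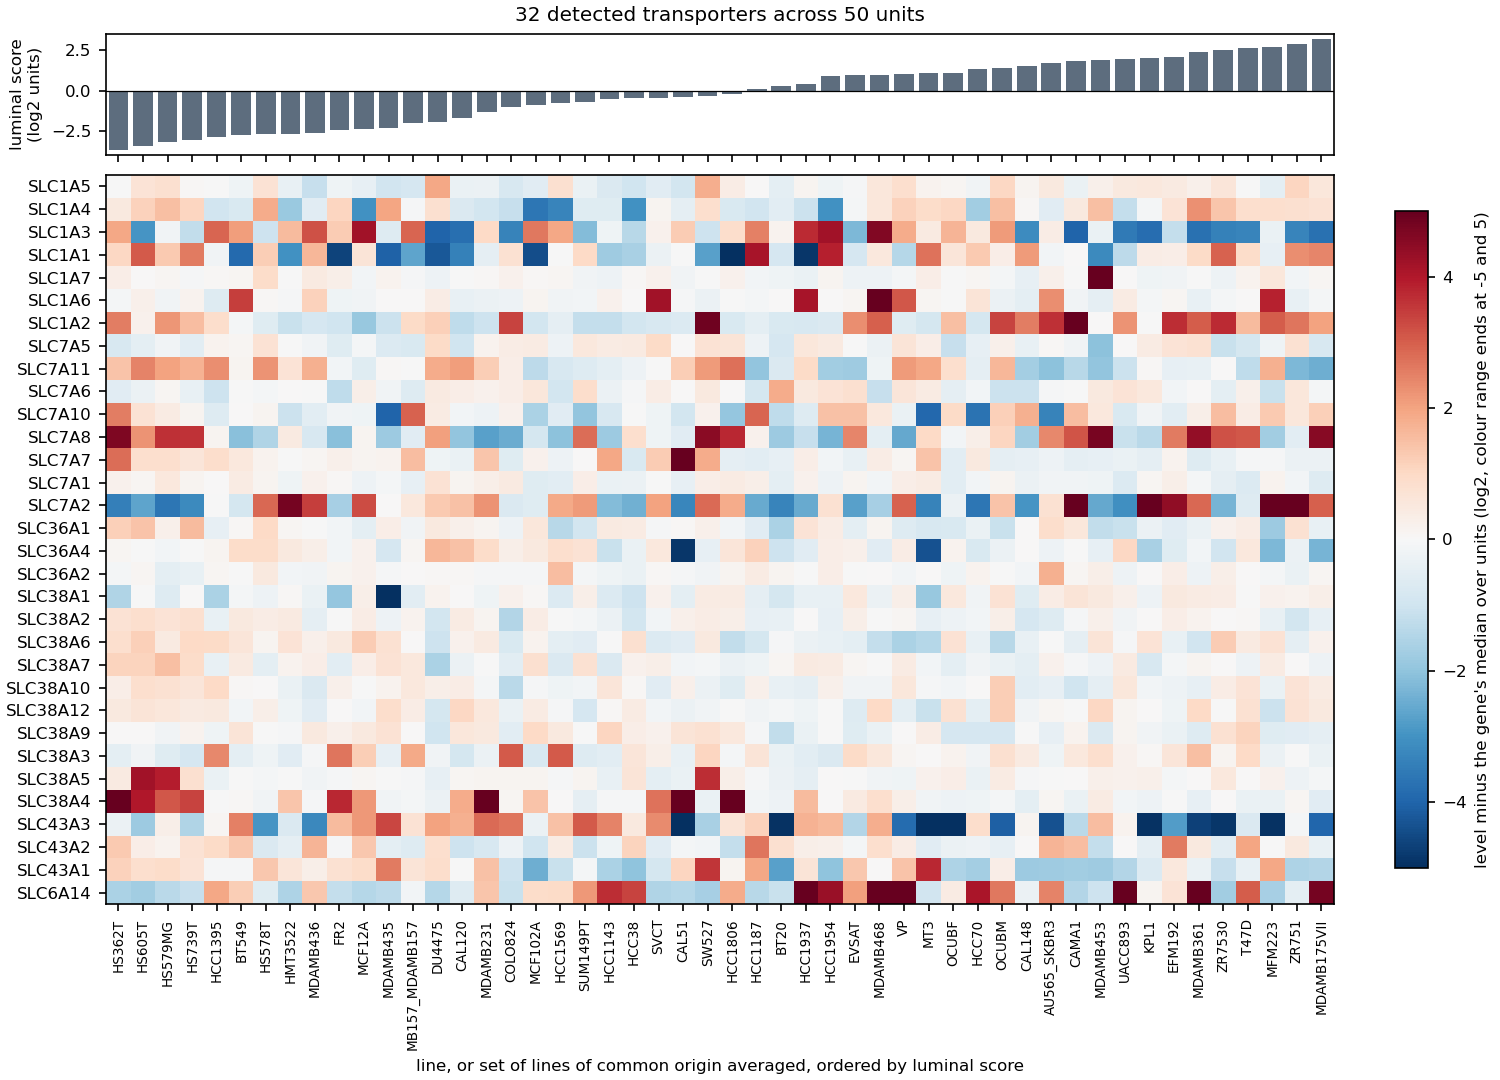
Level of 32 detected transporters (rows) minus the gene's median (colour, log2) in 50 units (columns) ordered by luminal score, which the bars on top show in log2 units. SLC38A4 is high in the 4 Hs lines on the left and in single lines such as MDAMB231 and CAL51, and SLC6A14 is high in scattered lines mostly on the right.

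Fibroblast markers moved with the same score: all 11 tested were lower at high scores, with a median slope of -1.89. All 3 mammary luminal markers tested were higher, and so were 2 of 6 intestinal ones. None of the 4 mammary basal markers tested was called (median slope -0.55). HCC70, with a mammary basal marker mean of 10.99, had a score of 1.34. The slopes are therefore not a contrast of luminal with basal lines. Without the 4 Hs lines 7 of 31 members passed (22.6%) against 27.8% of all genes, 4 higher (12.9% against 15.3%) and 3 lower (9.68% against 12.5%), so the share of lower members was no longer above that of all genes. The 7 included 5 of the 14: SLC1A2 (1.10, adjusted p = 0.000495), SLC43A3 (-1.37, adjusted p = 0.0041), SLC7A11 (-0.63, adjusted p = 0.0107), SLC1A3 (-1.08, adjusted p = 0.0182) and SLC38A1 (0.40, adjusted p = 0.0329). SLC1A1 (1.06, adjusted p = 0.00958) and SLC7A8 (0.90, adjusted p = 0.0217) passed in addition. With HS578T left out as well, these 7 passed again, and SLC1A4 (0.55, adjusted p = 0.033) and SLC1A5 (0.26, adjusted p = 0.0373) joined them. That made 9 of 30 members (30%) against 25.6% of all genes, 6 higher (20% against 14%) and 3 lower (10% against 11.7%). Both SLC1A1 and SLC7A8 were high in the Hs lines, SLC1A1 between 8.23 and 10.23 and SLC7A8 between 8.70 and 11.11. SLC38A2 in the Hs lines, at 12.14 to 12.31, lay above every other line, of which the highest was at 12.11.

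Of the 14 calls, 7 held with each of the 50 units left out in turn: SLC7A11, SLC43A3, SLC38A4, SLC1A2, SLC36A1, SLC6A14 and SLC38A1. Leaving out 1 unit cannot show dependence on the 4 Hs lines together, without which SLC38A4, SLC36A1 and SLC6A14 lost their call. SLC7A7 was lost without HS362T (adjusted p = 0.0977). SLC36A4 was lost in 36 of the 50 runs, SLC1A3 in 22, SLC38A6 in 10, SLC38A2 and SLC7A1 in 6 each and SLC43A1 in 4, with adjusted p-values up to 0.102, 0.0848, 0.0756, 0.0769, 0.0732 and 0.0558. Without HS362T 8 members passed in all (25%, against 33.1% of genes). Without the MDAMB435 set and MT3, 13 of the 14 passed (40.6% of members, against 35.4% of genes), SLC38A1 and SLC43A3 among them. With MB157 and MDAMB157 as separate units 13 passed, and SLC7A1 did not (-0.10, adjusted p = 0.094). The share of all genes in that setting is not given here.

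Enzymes and sensors of amino acid metabolism were called in both directions with the luminal score: 9 of 49 tested were higher (18.4% against 20.4% of all genes) and 8 lower (16.3% against 15.3%), shares near those of all genes. PRODH, which oxidises proline, had a slope of 1.46 (adjusted p = 3.44e-07), and BCKDHA, of the branched-chain keto acid dehydrogenase, one of 0.43 (adjusted p = 3.77e-06). The mitochondrial branched-chain transaminase BCAT2 was higher (0.34, adjusted p = 0.000212) and its cytosolic counterpart BCAT1 lower (-1.96, adjusted p = 0.000248). RRAGC, a Rag GTPase that signals lysosomal amino acids to mTORC1, was lower (-0.29, adjusted p = 0.000102). Of 14 other amino acid carriers tested, 2 were higher (14.3%), SLC16A10 (0.67) and SLC25A44 (0.16), and 2 lower (14.3%), SLC6A15 (-1.42, adjusted p = 0.000745) and SLC25A12 (-0.22).

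The mesenchymal score, the mean deviation of 15 genes such as VIM, ZEB1, CDH2 and FN1, ran opposite to the luminal score (r = -0.87 over 50 units, which share their libraries). It fell into separate clusters of 20 and 30 units, so the cluster entered the fit as a factor and the slope is that within clusters. Of the 14636 genes tested 19.9% passed (9.05% higher, 10.8% lower), and 3 of 32 members (9.38%) did: SLC38A6 (slope 0.66, SE 0.18, adjusted p = 0.00607) and SLC38A2 (0.40, SE 0.11, adjusted p = 0.0079) rose and SLC6A14 (-1.95, SE 0.66, adjusted p = 0.0283) fell. All 11 fibroblast markers tested rose with the score, with a median slope of 3.49. Without the 4 Hs lines none of the members passed, at 123 genes called in all, and the slope of SLC6A14 turned to 0.69. Without the MDAMB435 set and MT3 all 3 calls were lost, as they were with MB157 and MDAMB157 as separate units, and SLC38A7 alone passed (0.53, adjusted p = 0.046, and 0.56, adjusted p = 0.0259). Leaving out single units also changed the calls. SLC38A2 was lost in 11 of 50 runs, with the largest adjusted p of 0.219 at a slope of 0.29 without MDAMB453, and SLC38A6 in 10, with 0.405 at a slope of 0.32 without HCC1806. SLC6A14 was lost in 15, with a slope of -0.0051 (adjusted p = 0.998) without T47D, and its slope ran from -2.43 without COLO824 to 0.21 without MDAMB453. With no cluster factor 10 members passed (31.2%) against 37.7% of all genes, 9 of them higher in mesenchymal lines (28.1% against 15.9%) and 1 lower (3.12% against 21.9%). The higher ones were led by SLC38A4 (1.003, adjusted p = 0.000141), with SLC7A11 (0.65, adjusted p = 0.00528) among them, and the lower one was SLC1A2 (-0.94, adjusted p = 0.00121). SLC38A4 exceeded background only in lines with positive mesenchymal scores, from 0.54 in HCC1806 to 4.21 in HS579MG. It passed the detection filter only through such lines, so it adds no separate support to the share of higher members. No count without the 4 Hs lines is given for the fit with no cluster factor. Among the enzymes and sensors 3 of 49 rose (6.12%) and 6 fell (12.2%), near the shares of all genes, with BCAT1 (2.45, adjusted p = 0.0164) and SAMTOR, the sensor of S-adenosylmethionine (0.78, adjusted p = 0.00029), among those that rose.

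Cells short of amino acids induce ATF4, which raises synthetic enzymes and several carriers. An amino acid response score was made from 24 such genes, among them ASNS, PSAT1, TRIB3, CHAC1 and DDIT3, and no carrier. Its SD was 0.50 log2 units, with DU4475 lowest at -1.66 and OCUBM highest at 1.22. No member passed in limma, and 8 of 14627 genes did, all higher (0.0547%, and 0% lower). At an unadjusted p under 0.05 there were 6 of 32 members (18.8%) against 8.04% of genes, all with positive slopes: SLC43A1 (0.52), SLC7A11 (0.51), SLC1A4 (0.49), SLC38A5 (0.38), SLC38A2 (0.16) and SLC7A1 (0.12), with adjusted p-values of 0.375 to 0.532. Of these 6, SLC38A5 was at background in 55 of the 58 lines. It was detected only through HS605T, HS579MG and SW527, whose scores were 0.72, 0.67 and 0.53, so its slope rests on these 3 lines. The median slope was 0.11 over members and -0.0055 over all genes tested. SLC6A9, a glycine carrier outside the families studied, passed (0.81, SE 0.13, adjusted p = 0.000637). Without DU4475, the line with the highest SLC1A5, SLC7A5, SLC7A1 and SLC36A4 and the lowest score, SLC7A1 passed (0.19, SE 0.04, adjusted p = 0.0398).

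NRF2 is the factor that raises antioxidant genes, and SLC7A11 is among its known targets. Its score took 18 genes, such as NQO1, GCLM, TXNRD1, SRXN1 and AKR1C1, without SLC7A11, and was highest in BT20 and HCC1395 and lowest in CAMA1 and COLO824. Of 14633 genes 6.4% passed (3.03% higher, 3.36% lower), and of the 32 members 2 did (6.25%). SLC1A3 rose with the score (slope 1.06, SE 0.33, adjusted p = 0.042) and SLC1A2 fell (-0.83, SE 0.24, adjusted p = 0.0321). SLC7A11 itself had a slope of 0.40 (SE 0.20) with an adjusted p of 0.224. The SLC1A3 call was lost in 14 of the 50 runs that leave out a unit, that without DU4475 among them, up to an adjusted p of 0.0891 without CAMA1, and the SLC1A2 call in 4, up to 0.0924, also without CAMA1. With MB157 and MDAMB157 as separate units SLC1A3 did not pass (1.005, adjusted p = 0.0565). Outside the families, SLC6A6, the taurine carrier, rose (0.51, adjusted p = 0.00559), and SLC16A10, a carrier of aromatic amino acids, fell (-1.10, adjusted p = 0.00138). The NRF2 score had r = -0.30 with the luminal score and 0.38 with the mesenchymal score over 50 units, which share their libraries. SLC1A3 and SLC1A2 were also called on the luminal score, with the opposite sign there (-0.85 and 0.81). No fit held both scores, so the associations cannot be told apart.

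MYC is known to raise SLC7A5 and SLC1A5 in several cancers. Against the level of MYC itself, 2.78% of 14650 genes passed (2.15% higher, 0.635% lower) and none of the 32 members. At an unadjusted p under 0.05 there were 4 members (12.5%) against 17.8% of genes: SLC38A12 (-0.21), SLC38A10 (-0.17), SLC7A5 (0.20, SE 0.09, adjusted p = 0.198) and SLC7A2 (0.84, adjusted p = 0.238), the last of which passed without MDAMB175VII. Of the enzymes, ODC1, the first enzyme of polyamine synthesis and a known MYC target, rose with MYC (0.56, adjusted p = 0.011), as did MAT2A (0.07, adjusted p = 0.0344) and GOT2 (0.16, adjusted p = 0.044).

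Members were also set against one another. The levels of 9 detected members fell into separate clusters of units (SLC1A2, SLC1A3, SLC1A6, SLC7A2, SLC7A8, SLC38A3, SLC38A4, SLC38A5 and SLC6A14), and no correlation is given for them. For instance, SLC6A14 had 20 units up to 3.32 and 30 from 3.61 up. Both edges lie below the background of 5.53, so the upper cluster is not a group of units that express it. The splits of SLC1A2, SLC7A2 and SLC38A4 also lie below background. SLC38A5 had 47 up to 5.21 and 3 from 8.12 up. Over the other 23 members and 253 pairs, the median Pearson r over 50 units was 0.03. The points of each pair share their libraries.

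The highest values joined SLC43A1, SLC7A1 and SLC7A11, carriers of leucine, arginine and cystine. SLC43A1 with SLC7A1 had r = 0.60 (Spearman rho 0.61, and r = 0.57 once the 2 units with the most extreme level of the first-named gene are removed), SLC43A1 with SLC7A11 had r = 0.58 (rho 0.58, and 0.54 without 2 units) and SLC7A1 with SLC7A11 had r = 0.57 (rho 0.57, and 0.54 without 2 units). Without the 4 Hs lines the 3 values were 0.59, 0.56 and 0.54. The same 3 members were all lower with the luminal score and all had an unadjusted p under 0.05 with the amino acid response score (above). Members that correlate tend to share slopes, so this is not separate support. The luminal calls of SLC43A1 and SLC7A1 were lost without the 4 Hs lines. SLC36A4 with SLC43A3 came next at r = 0.53. The lowest r was that of SLC38A6 with SLC7A5, -0.48.

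**Figure D5:**
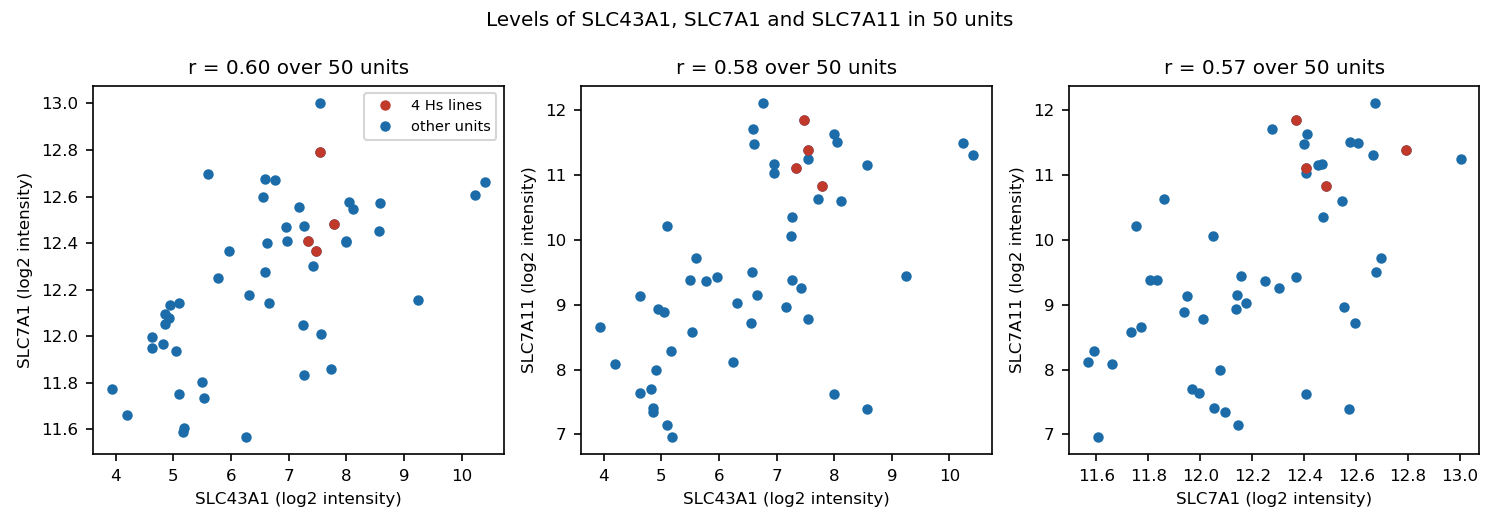
Levels (log2 intensity) of SLC43A1, SLC7A1 and SLC7A11 against one another in 50 units (points; the 4 Hs lines in red). The clouds rise together with r of 0.60, 0.58 and 0.57, and SLC7A1 spans a far narrower range (11.43 to 13.003 over the lines) than the other two.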

How the data were processed

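The authors deposited 1 table of log2 intensities for 58 arrays and 52377 probe sets, made with RMA in Affymetrix Power Tools per the submitters' processing notes. Versions, and whether arrays were normalized together, are not given in the sources used here. RMA draws array distributions together, which can shrink changes shared by many genes. Only the 35184 probe sets with 1 gene name entered (79 for members, 21 members having several); 374 had several names and 16819 none. The number of arrays limits the precision.

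Scores were means of deviations from gene medians over detected listed genes. Slopes were fitted with limma 3.58.1 (lmFit, eBayes with trend and robust, 2-sided) in R 4.3.3 over 50 units, adjusted over all detected genes without those of the predictor. Separate clusters meant a mixture of 2 normal components (mclust 6.1.1) with a BIC gain above 10, Ashman's D above 2 and 3 or more units per cluster. P-values measure the spread between lines. Every member may be named, and of the pathway lists at most the 5 genes with the smallest adjusted p per fit. Members and lists were chosen with earlier results of these data known. The steps were tested on simulated data. RefSeq names and gene order were used without positions of probe sets, whose build is not given. Alternatives covered probe sets, normalization, filters, units left out, array quality, eBayes, the cluster factor and ranks.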

Additional observations from a re-analysis of the deposited data

How the results depend on the processing

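Counts of transporters past the threshold depended most on which lines entered and on the cluster factor. The share of all genes called is given above for some of these settings only, so a change in count may not be particular to carriers. On the luminal score (14), 7 passed without the 4 Hs lines, 9 without the 3 widest arrays, 9 without the Hs lines and HS578T, 1 with a cluster factor and 8 to 14 with 1 unit left out. The slope of SLC7A7 turned to 0.10 with the factor. On the mesenchymal score (3), 5 passed with the mean of probe sets, 1 over all 58 lines, 1 without the MDAMB435 set and MT3, 1 with MB157 and MDAMB157 as separate units, 0 without the Hs lines, 0 without the widest arrays, 0 without the Hs lines and HS578T, 10 with no cluster factor and 0 to 7 with 1 unit left out. In the 3 settings with 1 call it was SLC38A7, which is none of the 3. The SLC6A14 slope there turned to 0.69, 0.052 and 0.88 without the Hs lines, the widest arrays, and the Hs lines with HS578T. On the NRF2 score (2), 0 passed with the mean of probe sets, 1 with no filter, 0 with a cluster factor, 1 without DU4475, 1 with MB157 and MDAMB157 apart and 0 to 3 with 1 unit left out. On the amino acid response score (0) 1 passed without DU4475 and 0 to 1 with 1 unit left out, and on MYC 0 to 1. The causes were not tested. All other alternatives kept these counts within 1.5 times. Of 283 alternative values for the 19 named slopes, 69 lost their call and 4 turned, and each named slope changed its call in at least 1. Detected members numbered 27 to 40 and members with an SD of at least 1 from 13 to 17, or 11 at an SD of 1.5. Leaving out DU4475, HS578T or single units and parting MB157 from MDAMB157 were chosen after seeing the data. The fit on SLC3A2 and its subunit pairs were not run, since no probe set used here names it, and leaving out probe sets marked for cross-hybridisation changed nothing, as 0 carry the mark. No paired analysis was possible because the labels give no groups.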
